A study of Homo sapiens with 61 samples.

Results

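A set of 37 genes of glucose breakdown and of the response to low oxygen was followed by RNA sequencing through human neurons exposed to vincristine, a drug that binds tubulin and stops microtubules from growing. The genes were given as a list of symbols, which were matched to the gene identifiers of the count tables through GENCODE release 29. They are 37 of the 58440 gene identifiers counted. By role they are 2 glucose transporters, 6 genes for the steps from hexokinase to phosphofructokinase, and 3 enzymes that make or remove fructose 2,6-bisphosphate. The list continues with 9 genes from aldolase to pyruvate kinase, 4 lactate dehydrogenase and lactate transporter genes, and 4 pyruvate dehydrogenase kinases. HIF1A with 2 prolyl hydroxylases and 6 other hypoxia-linked genes complete it.

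Glycolysis turns glucose into pyruvate in the cytosol. Pyruvate is either reduced to lactate by lactate dehydrogenase or moved into mitochondria, where pyruvate dehydrogenase commits it to the citric acid cycle unless a pyruvate dehydrogenase kinase switches that enzyme off. When oxygen is scarce, prolyl hydroxylases no longer mark the transcription factor subunit HIF-1α for destruction, and the HIF-1 dimer then binds a short core sequence in DNA, the hypoxia response element, near many of the genes of the list. Neurons are known for a high demand for glucose.

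All cells descended from the human stem cell line WTC11, which is pluripotent and was derived by reprogramming, and were made into neurons by forced expression of NGN2, a transcription factor that drives neuronal fate. The first experiment used 4 lines with an NGN2 cassette under doxycycline control. These were wild type (WT), a knockout of either kinase (DLK KO or LZK KO), and DLK LZK double KO. DLK (gene MAP3K12) and LZK (gene MAP3K13) are kinases that start a stress signalling cascade to JNK. The second experiment used WTC11 i3Neurons that carry the CRISPR interference machinery, which silences a gene without cutting it, and that had received by lentivirus a guide RNA against ATF2 (ATF2 gRNA), against JUN (JUN gRNA) or a scrambled sequence (Control gRNA). ATF2 and JUN are transcription factors downstream of JNK.

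At day 14, each line or guide population was given 5 nM vincristine or the DMSO vehicle for 16 h, and the vehicle samples carry the label untreated. Each genotype of the first experiment is described as 1 line, so a difference between genotypes cannot be told apart from a difference between lines. The first experiment had 4 libraries in each of its 8 groups. The second had 5 in each of its 6 groups, except for ATF2 gRNA with vincristine, which had 4, numbered 2 to 5. Nothing in the sources says that replicates came from separate cultures, so the p-values measure the spread between these samples, which may be technical.

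Libraries of the first experiment held 8410729 to 14647819 counts, and those of the second, sequenced more deeply, held 38925807 to 88392414. MAP3K12 RNA in DLK KO stood at 28.9% of the WT mean untreated and 29.0% with vincristine, and MAP3K13 RNA in LZK KO at 32.2% and 26.3%. ATF2 RNA was at 0.409% and 0.403% of Control gRNA under the ATF2 guide, and JUN RNA at 3.24% and 2.71% under the JUN guide. JUN RNA was also at 23.7% and 8.63% of Control gRNA under the ATF2 guide. All 10 neuronal marker genes were detected in both experiments, with summed levels of 4097 to 7841 CPM (counts scaled to a common library size) in the first and 4589 to 6897 in the second. The 5 microglial markers summed to at most 2.58 CPM in any library, 5 fibroblast markers to at most 3.28 and 5 astrocyte markers to at most 8.42. The 5 oligodendrocyte markers, of which 3 passed the filter, summed to 13.1 to 48.8 CPM in the first experiment and 6.15 to 24.9 in the second. In the vincristine-treated WT group, replicate 4 stood apart: its root mean square deviation from its group mean was 0.376 on the log2 scale, against 0.224 in the next most deviant library.

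Differences were tested on the counts with edgeR's quasi-likelihood test, with Benjamini-Hochberg adjustment over all genes of an experiment (18235 and 20759 genes). Every adjusted p below comes from it. A gene is called changed at an adjusted p under 0.05, folds are on the log2 scale with their standard error (SE), and levels are CPM unless said otherwise. SLC16A3, a lactate exporter, and PDK4, a pyruvate dehydrogenase kinase, did not pass the filter on low counts. SLC16A3 had group means of 0.00366 to 0.508 CPM and PDK4 of at most 0.164 CPM, and in 5 of the 6 groups of the second experiment no library had a PDK4 count (a count of 0 allows up to 3 counts per library). The other 35 genes passed in both experiments.

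Per length of transcript, the RNA levels of the glycolytic genes spanned a wide range in untreated neurons. In RPKM (CPM divided by the exon length in kilobases), GAPDH was highest in WT at 377 ± 28.2 (SD, n = 4), followed by LDHB at 151 ± 13.3, TPI1 at 111 ± 9.51, the neuronal enolase ENO2 at 110.3 ± 2.86 and HK1, the main hexokinase of brain, at 80.4 ± 1.32. The libraries of TPI1 and ENO2 overlapped, and those of LDHB lay above both. Of the glucose transporters, the neuronal SLC2A3 stood at 9.98 ± 0.351 RPKM and the widely expressed SLC2A1 at 5.87 ± 0.595. HK2, the hexokinase of muscle and dividing cells, was at 0.147 ± 0.0283 RPKM. In untreated Control gRNA neurons the order began with GAPDH at 1013 ± 20.9 (SD, n = 5), ENO2 at 279 ± 6.63, LDHB at 232 ± 5.34 and TPI1 at 219 ± 10.1 RPKM, with overlap between the libraries of LDHB and TPI1. Levels were not tested between the experiments, which were made from different cells.

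With vincristine, most genes of the list that changed in the 2 control populations fell. In WT, 1 of the 35 tested genes rose and 15 fell, beside 30.2% of all genes called in either direction (15.7% higher and 14.5% lower). In Control gRNA, 2 rose and 22 fell, beside 35.3% of all genes (17.1% higher and 18.1% lower). The median log2 fold change of the 35 genes was -0.21 in WT, where the median of all genes was 0.00, and -0.26 in Control gRNA, where it was 0.03. In all, 13 genes fell in both populations, 1 rose in both and none was called in opposite directions. The shares of all genes that did so are not given here, so these overlaps only describe the list. In bulk RNA, fewer cells of a type and less RNA per cell cannot be told apart. Without WT vincristine replicate 4, 1 of the 35 genes rose and 17 fell in WT, and the share of all genes without it is not given here.

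The glucose transporter SLC2A1 (GLUT1, ENSG00000117394.21, chr1:42925375-42959176 on the minus strand of GRCh38) had the steepest fall of the list in both populations. Its level was 25.8, 25.3, 31.4 and 28.4 CPM in the untreated WT libraries and 12.9, 17.3, 13.0 and 11.8 with vincristine. In Control gRNA it was 43.4, 51.1, 47.3, 48.8 and 48.3 untreated and 24.6, 28.0, 26.5, 24.8 and 27.3 with vincristine. Every treated library was below every untreated one in both. The log2 fold change was -1.01 ± 0.11 (SE, adjusted p = 1.46e-09) in WT and -0.87 ± 0.06 (SE, adjusted p = 5.3e-17) in Control gRNA, that is 0.496 and 0.549 times the untreated level. SLC2A3, the neuronal transporter, was 0.09 ± 0.08 in WT (adjusted p = 0.418) and fell by 0.11 ± 0.04 in Control gRNA (adjusted p = 0.0413), a call lost in 10 of 16 alternative settings and omissions.

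**Figure D1:**
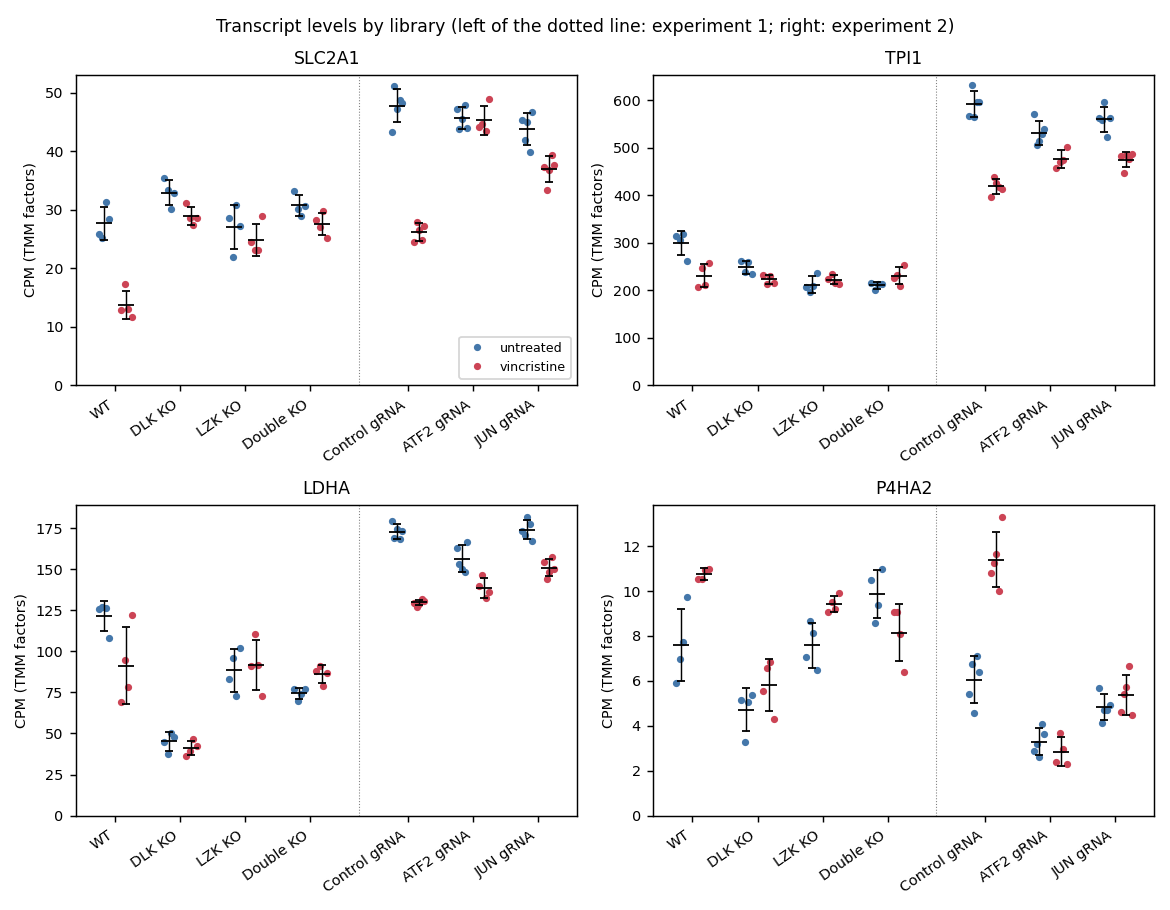
Level of SLC2A1, TPI1, LDHA and P4HA2 in every library, in CPM on a linear axis, by group; points are libraries and bars the mean ± SD. In WT and in Control gRNA the vincristine libraries of SLC2A1 lie below all untreated ones and those of P4HA2 above them, while the DLK LZK double KO libraries of SLC2A1, TPI1 and P4HA2 overlap between treatments.

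Of the enzymes from hexokinase to phosphofructokinase, 1 of 6 fell in WT, near the 14.5% of all genes called lower there. In Control gRNA 4 of 6 fell, beside 18.1% of all genes, and none rose in either population. PFKP, the platelet-type phosphofructokinase, fell in both, by 0.26 ± 0.10 (adjusted p = 0.0453) and 0.23 ± 0.06 (adjusted p = 0.00157). The WT call of PFKP was lost in 8 of 14 alternatives, among them the omission of any 1 untreated library or of vincristine replicate 3 or 4, and without replicate 4 the value was -0.13 (adjusted p = 0.232). HK1, GPI (glucose phosphate isomerase) and the muscle-type PFKM fell in Control gRNA, by 0.27, 0.34 and 0.31 on the log2 scale. In WT, where they did not pass the test, their values were -0.06, -0.10 and -0.05.

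The enzymes that set fructose 2,6-bisphosphate, the activator of phosphofructokinase, gave 1 fall of 3 in each population. Of all genes, 14.5% were called lower in WT and 18.1% in Control gRNA. PFKFB4 (ENSG00000114268.11, chr3:48517684-48562015, minus strand), a hypoxia-induced form, stood at 31.2, 30.3, 28.9 and 36.3 CPM in untreated WT and at 20.7, 24.8, 21.6 and 13.4 with vincristine. In Control gRNA its level was 31.4, 32.4, 28.8, 36.0 and 29.8 untreated and 23.1, 26.2, 23.9, 23.5 and 28.1 with vincristine. The groups did not overlap in either population. It fell by 0.64 ± 0.12 (SE, adjusted p = 6.13e-05) in WT and by 0.34 ± 0.08 (SE, adjusted p = 0.000268) in Control gRNA. PFKFB2, the heart form, and PFKFB3 were not called, at -0.25 and -0.05 in WT and -0.07 and -0.01 in Control gRNA.

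The steps from aldolase to pyruvate kinase held 5 falls among 9 genes in WT and 8 in Control gRNA, beside 14.5% and 18.1% of all genes. TPI1, triosephosphate isomerase (ENSG00000111669.14, chr12:6867119-6870948, plus strand), was at 314, 307, 318 and 262 CPM in untreated WT and at 208, 248, 212 and 256 with vincristine. In Control gRNA it was at 568, 632, 565, 597 and 596 CPM and, with vincristine, at 397, 439, 426, 417 and 414. The highest treated library lay below the lowest untreated one in each. The log2 fold changes were -0.38 ± 0.07 (SE, adjusted p = 7.06e-05) and -0.50 ± 0.04 (SE, adjusted p = 1.38e-15).

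ALDOC, the aldolase of brain (ENSG00000109107.13, chr17:28573115-28577264, minus strand), had 10.6, 11.1, 10.5 and 10.4 CPM in untreated WT and 6.99, 8.99, 8.00 and 7.44 with vincristine. Control gRNA had 13.9, 14.4, 15.9, 15.7 and 14.9 CPM untreated and 8.31, 9.62, 7.12, 9.53 and 9.04 with the drug. No treated library reached the untreated range. ALDOC fell by 0.44 ± 0.13 (SE, adjusted p = 0.0102) in WT and by 0.78 ± 0.11 (SE, adjusted p = 9.72e-08) in Control gRNA. PGAM1 (phosphoglycerate mutase), ENO1 (the general enolase) and PKM (pyruvate kinase) also fell in both, by 0.32, 0.24 and 0.21 in WT and by 0.33, 0.26 and 0.45 in Control gRNA. The WT call of ENO1 was lost with only the groups compared in the fit. GAPDH, PGK1 and ENO2 fell in Control gRNA, by 0.15, 0.24 and 0.22, with -0.01, -0.08 and -0.04 in WT. ALDOA, which shares 42.3% of its exon bases on the same strand with the overlapping gene AC093512.2 and is uncertain for that reason, was not called in either (-0.21 and -0.20).

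On the lactate side, 2 of the 3 tested genes fell in WT and all 3 in Control gRNA, beside 14.5% and 18.1% of all genes. LDHA, the lactate dehydrogenase subunit that favours lactate (ENSG00000134333.13, chr11:18394388-18408425, plus strand), was at 126, 127, 126 and 108 CPM in untreated WT and at 69.0, 94.8, 78.3 and 122 with vincristine. Replicate 4, at 122, lay within the untreated range and the other 3 below it. Control gRNA libraries held 179, 169, 174, 169 and 173 CPM untreated and 129.7, 127, 129, 132 and 131 with vincristine, with no overlap. The log2 fold change was -0.42 ± 0.13 (SE, adjusted p = 0.0134) in WT and -0.41 ± 0.04 (SE, adjusted p = 7.91e-13) in Control gRNA. The WT call was lost without vincristine replicate 1 or 3 and with only the groups compared in the fit, and without replicate 4 the fold change was -0.59 (adjusted p = 0.000269). The subunit LDHB, which favours pyruvate, was -0.25 in WT (adjusted p = 0.138) and fell by 0.41 ± 0.03 in Control gRNA (adjusted p = 6.15e-16).

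SLC16A1 (MCT1, ENSG00000155380.11, chr1:112911847-112957013, minus strand) carries lactate and pyruvate across the plasma membrane. Its level was 36.7, 31.9, 34.8 and 34.7 CPM in untreated WT and 20.3, 21.3, 21.6 and 28.9 with vincristine. In Control gRNA it was 81.3, 83.5, 79.7, 78.0 and 78.7 untreated and 58.4, 56.3, 59.0, 55.5 and 55.1 with vincristine. Treated and untreated libraries were apart in both, although WT vincristine replicate 4 was far above its 3 companions. SLC16A1 fell by 0.59 ± 0.10 (SE, adjusted p = 9.08e-06) in WT and by 0.50 ± 0.06 (SE, adjusted p = 5.49e-09) in Control gRNA. Without that library the WT value was -0.71.

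Among the pyruvate dehydrogenase kinases, PDK3 fell in WT by 0.30 ± 0.10 (adjusted p = 0.0195), a call lost in 5 of 14 alternatives, 3 of which leave out 1 library (untreated replicate 1 or 3, vincristine replicate 1). PDK2 fell in Control gRNA by 0.37 ± 0.10 (adjusted p = 0.00206). It shares 38.6% of its exon bases with genes of the other strand, and how the counting used strand is not given, so its value is uncertain. PDK1, the hypoxia-induced kinase, was not called, at -0.16 and -0.01. HIF1A itself, the gene for HIF-1α, fell in WT by 0.39 ± 0.07 (adjusted p = 3.6e-05) and was -0.03 ± 0.06 in Control gRNA (adjusted p = 0.816). EGLN1, the main prolyl hydroxylase that marks HIF-1α, fell in both, by 0.30 and 0.20. Its WT call was lost in 5 of 14 alternatives, among them without untreated replicate 2 or 3 or vincristine replicate 4, where it was -0.17 (adjusted p = 0.162). EGLN3, the hypoxia-induced hydroxylase, had group means of 0.594 to 1.73 CPM and was not called with vincristine in either population. Its untreated level was called lower than WT in DLK KO (-0.98) and the double KO (-0.93), calls lost in 7 of 14 and 7 of 13 alternatives.

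Of the 6 other hypoxia-linked genes, BNIP3 and FAM162A fell and P4HA2 rose in both populations. BNIP3, which recruits mitochondria to autophagy, went from 59.2 ± 5.83 to 43.0 ± 5.26 CPM in WT (SD, n = 4) and from 57.8 ± 4.72 to 44.1 ± 2.44 in Control gRNA (SD, n = 5). Its fold changes were -0.46 ± 0.09 (SE, adjusted p = 0.000113) and -0.39 ± 0.05 (SE, adjusted p = 6.76e-08). FAM162A, a mitochondrial protein induced by low oxygen, fell by 0.49 ± 0.14 (adjusted p = 0.00693) and 0.34 ± 0.08 (adjusted p = 0.0006). BNIP3L, a relative of BNIP3, and P4HA1, a collagen prolyl hydroxylase subunit, were not called in either. The GENCODE annotation names 39 pseudogenes of BNIP3 and 62 of GAPDH, whose reads may be split among copies, so these values are uncertain.

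P4HA2, the alternative catalytic subunit of collagen prolyl 4-hydroxylase (ENSG00000072682.18, chr5:132191838-132295315, minus strand), was at 5.93, 6.99, 7.73 and 9.74 CPM in untreated WT and at 10.5, 10.5, 11.0 and 11.0 with vincristine. In Control gRNA it was at 5.40, 6.77, 4.56, 7.12 and 6.42 untreated and 10.8, 11.2, 11.7, 10.0 and 13.3 with vincristine. All treated libraries lay above all untreated ones, with 1 untreated WT library close below. It rose by 0.50 ± 0.14 (SE, adjusted p = 0.00674) in WT and by 0.92 ± 0.14 (SE, adjusted p = 9.41e-07) in Control gRNA. ANKRD37, an ankyrin repeat gene induced by HIF-1, rose in Control gRNA at a low level, from 0.747 ± 0.337 to 1.72 ± 0.669 CPM (1.21 ± 0.34 SE, adjusted p = 0.00378), and was 0.40 ± 0.27 in WT (adjusted p = 0.296). ANKRD37 shares 35.2% of its exon bases with genes of either strand, and how the counting used strand is not given in the sources used here.

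Sequence upstream of the genes was examined because HIF-1 binds the core ACGTG or GCGTG. RefSeq promoter entries (GRCh38.p14) were found for 33 of the 37 genes, and the 250 bases before the start were searched on both strands. ACGTG was present in 14 of the 33 (42.4%), beside 18.7% of all 27305 promoters of that length, and GCGTG in 11 (33.3%), beside 31.9%. Either core was present in 19 (57.6%), beside 43.1%. Of the elements tied to the transcription factors of the study, TGACGTCA, an element that ATF2 dimers bind, was present in 1 of the 33 (LDHA, 3.03% beside 1.77% of all), and TTACGTCA in none (0.425% of all). TGACTCA, an AP-1 site, was present in 1 (ENO2), beside 4.16% of all, and the ATF4 composite site TGATGCAA in 1 (HK1), beside 0.820%.

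The stretches below belong to 3 genes that fell in both control populations, and are shown because each holds ACGTG within bases that no annotated exon covers. Capitals mark matches of either core on either strand, where a match on the opposite strand reads CACGT or CACGC. They run 5′ to 3′ on the strand of the gene. BNIP3 (chr10:131982014-131982173, minus strand) holds 6 matches over 160 bases, which include a CACGTG palindrome counted on both strands. LDHA (chr11:18394313-18394387, plus strand) holds 2 in 75 bases, from the same kind of palindrome. FAM162A (chr3:122383932-122384175, plus strand) holds 4 in 244 bases. SLC2A1, TPI1, PKM, PGAM1 and PFKP, which also fell in both, and P4HA2, which rose, held neither core in the 250 bases searched. ALDOC, PFKFB4, EGLN1 and ENO1 fell in both and held a core, and SLC16A1 had no promoter entry to search. A link between the cores and the falls was not tested. A match is a description of these letters and no measure of binding.
BNIP3: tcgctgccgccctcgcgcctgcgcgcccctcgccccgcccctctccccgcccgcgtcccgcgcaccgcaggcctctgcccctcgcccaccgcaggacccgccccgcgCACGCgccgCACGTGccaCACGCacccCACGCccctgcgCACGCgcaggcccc
LDHA: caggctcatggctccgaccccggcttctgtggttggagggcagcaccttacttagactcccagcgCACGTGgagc
FAM162A: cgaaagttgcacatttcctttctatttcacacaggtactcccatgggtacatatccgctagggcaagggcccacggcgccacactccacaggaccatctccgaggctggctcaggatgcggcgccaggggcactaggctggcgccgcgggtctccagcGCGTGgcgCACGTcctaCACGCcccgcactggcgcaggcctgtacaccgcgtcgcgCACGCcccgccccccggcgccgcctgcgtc

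Without DLK, without LZK or without both, vincristine changed few genes, of the list as of all genes tested. The counts of the list were near the share of all genes called in each line. In DLK KO, 1 rose and 1 fell of 35, beside 6.53% of all genes (4.24% higher and 2.28% lower). In LZK KO, 1 rose, beside 3.88% (2.27% higher and 1.61% lower). In the double KO none of the 35 was called by edgeR, beside 0.0658% of all genes (0.00548% higher and 0.0603% lower), with 1 at an unadjusted p under 0.05 and 0 called by DESeq2. With only the groups compared in the fit, edgeR called 5 genes in the double KO, all higher, 6 in DLK KO (4 higher and 2 lower) and 0 in LZK KO. The shares of all genes above belong to the main fit, and those under this other fit are not given here. The list's median fold changes were -0.02, 0.02 and 0.08. The calls in the single knockouts were PFKFB3 in DLK KO (0.40 ± 0.12 SE, adjusted p = 0.0497), FAM162A in DLK KO (-0.58 ± 0.13 SE, adjusted p = 0.00471) and GAPDH in LZK KO (0.24 ± 0.07 SE, adjusted p = 0.0411). The PFKFB3 call was lost in 10 of 14 alternatives, which include the omission of any 1 library, and the GAPDH call in 9 of 14, which include the omission of untreated replicate 1, 3 or 4 or of vincristine replicate 1, 2 or 4. Without LZK KO vincristine replicate 3, 3 genes were called in LZK KO, and without any 1 library 1 gene was called in DLK KO.

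**Figure D2:**
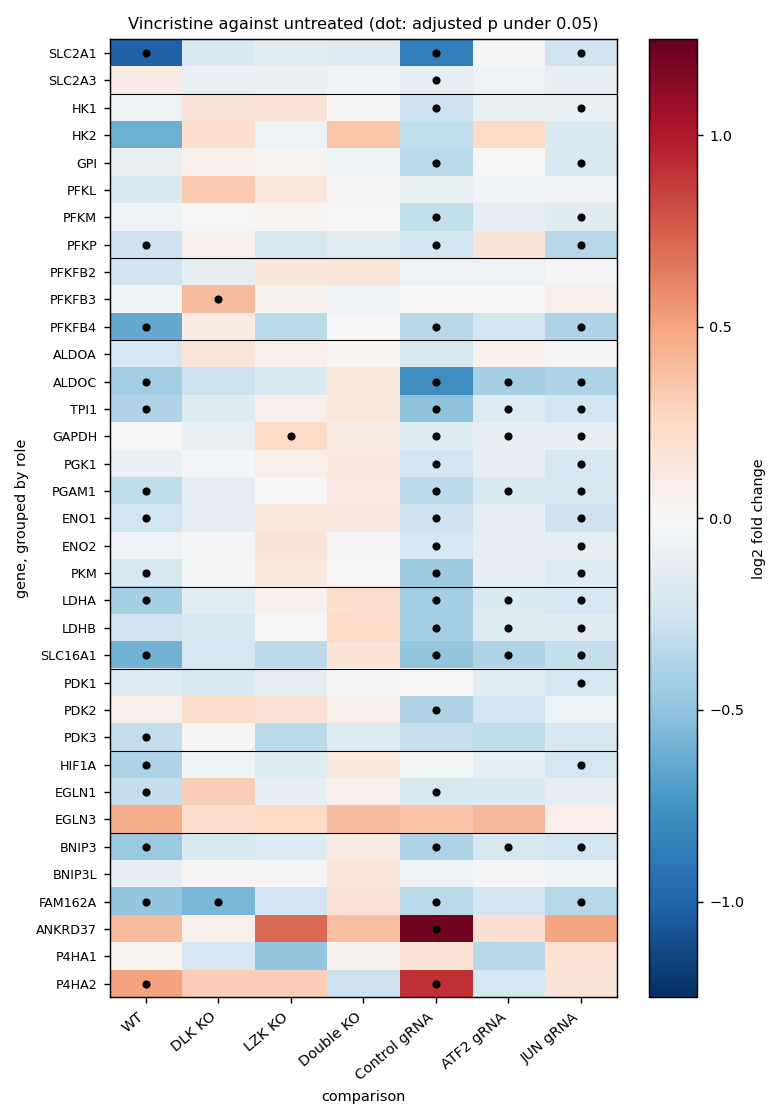
Log2 fold change with vincristine of the 35 tested genes (rows, by role) in the 4 lines and 3 guide populations (columns), on a symmetric colour scale; a dot marks a gene called at an adjusted p under 0.05. The WT column has 16 dots and the Control gRNA column 24, nearly all on falls, and the DLK LZK double KO column has none.

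Whether the effect of vincristine differed from WT was tested as an interaction. The difference was called for 4 genes in DLK KO, all higher, beside 19.4% of all genes (9.95% higher and 9.41% lower). It was called for 5 in LZK KO, all higher, beside 12.4% (5.88% higher and 6.53% lower). In the double KO it was called for 11, 10 higher and 1 lower, beside 19.4% (9.21% higher and 10.2% lower). These 3 tests share the WT libraries. SLC2A1 was called in all of them, with differences of 0.82 ± 0.15 (SE, adjusted p = 8.24e-05), 0.88 ± 0.15 (SE, adjusted p = 7.03e-05) and 0.85 ± 0.15 (SE, adjusted p = 3.74e-05). Its CPM were 35.5, 33.3, 30.1 and 32.8 in untreated DLK KO and 31.2, 28.7, 27.4 and 28.6 with vincristine. In LZK KO they were 28.5, 21.9, 30.8 and 27.2 and then 24.5, 23.0, 23.1 and 28.9, and in the double KO 33.2, 30.1, 29.0 and 30.7 and then 28.3, 27.1, 29.8 and 25.2. Treated and untreated libraries overlapped in each of the 3 knockout lines, and all treated knockout libraries were above all treated WT libraries. Within the knockouts the vincristine fold change of SLC2A1 was -0.19, -0.13 and -0.16, none of them called.

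In the double KO, TPI1 was at 216, 200.0, 213 and 212 CPM untreated and 227, 233, 210.0 and 253 with vincristine, and LDHA at 76.8, 69.7, 74.0 and 77.0 and 88.0, 91.2, 78.8 and 87.1. The treated libraries of TPI1 overlapped the untreated ones, and those of LDHA all lay above them without passing the test (0.21, adjusted p = 0.802). Their differences from WT were 0.51 ± 0.10 (SE, adjusted p = 0.000265) and 0.63 ± 0.18 (SE, adjusted p = 0.0139). For SLC16A1, at 30.8 to 32.2 CPM untreated and 31.7 to 39.9 with vincristine, the difference was 0.75 ± 0.13 (SE, adjusted p = 7.02e-05). PFKFB4 differed by 0.64, with 16.0 to 17.9 CPM untreated and 15.4 to 17.7 treated. PGAM1, ENO1 and HIF1A differed by 0.42, 0.35 and 0.52. BNIP3 and FAM162A, whose upstream stretches are printed above, differed by 0.55 and 0.66. Untreated, several of these genes were already called lower in the double KO than in WT. They were PFKFB4 (-0.90), TPI1 (-0.51), PGAM1 (-0.66), ENO1 (-0.76), LDHA (-0.71) and HIF1A (-0.19). SLC2A1 (0.14), SLC16A1 (-0.14), BNIP3 (-0.14) and FAM162A (0.02) were not called untreated. The part of the untreated level in the differences was not tested.

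P4HA2 was the gene of the list whose difference ran the other way, by -0.77 ± 0.20 (SE, adjusted p = 0.00553). Its CPM in the double KO were 10.5, 8.58, 9.39 and 11.0 untreated and 9.05, 9.08, 8.07 and 6.38 with vincristine. The treated range overlapped the untreated one and reached below it, where in WT it lay above. In DLK KO it went from 5.17, 3.29, 5.04 and 5.38 to 5.53, 6.57, 6.82 and 4.29 and in LZK KO from 7.05, 8.66, 8.14 and 6.48 to 9.09, 9.50, 9.21 and 9.92, with fold changes of 0.30 and 0.31 that were not called. All treated LZK KO libraries were above all untreated ones, while those of DLK KO overlapped. Untreated P4HA2 was called higher than WT in the double KO (0.37) and lower in DLK KO (-0.68), and was not called in LZK KO. The double KO call was lost in 4 of 14 alternatives. The part of the untreated level in the difference was not tested.

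The single knockouts differed from WT in other genes besides SLC2A1. In DLK KO these were PFKFB4 (0.73 ± 0.17 SE, adjusted p = 0.00244), HIF1A (0.34 ± 0.10 SE, adjusted p = 0.0142) and EGLN1 (0.60 ± 0.15 SE, adjusted p = 0.00497). In LZK KO they were the lower glycolytic enzymes TPI1 (0.44 ± 0.10 SE, adjusted p = 0.00239), PGAM1 (0.32), ENO1 (0.37) and PKM (0.33). The TPI1 call was lost with offsets for GC content, at 0.32, and the PGAM1 call in 12 of 22 alternatives, which include the omission of any of 8 libraries. Untreated, PFKFB4 was already lower than WT in DLK KO (-0.83), where HIF1A (0.04) and EGLN1 (-0.10) were not called. In untreated LZK KO, TPI1 (-0.50), PGAM1 (-0.45), ENO1 (-0.77) and PKM (-0.45) were already lower. Between the double KO and DLK KO, 1 gene of 35 differed, FAM162A, by 0.74 ± 0.18 with an adjusted p of 0.0319, beside 1.14% of all genes (0.126% higher and 1.01% lower), and that call was lost in 12 of 22 alternatives, each of which leaves out 1 library. With only the groups compared in the fit, 11 genes differed between those lines, 9 higher and 2 lower in the double KO. Without WT vincristine replicate 4, the counts of differing genes were 7 for DLK KO, 10 for LZK KO and 14 for the double KO. The shares of all genes under these alternatives are not given here.

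The summed level of neural progenitor markers was higher in every treated than in every untreated library in WT and Control gRNA, and also in DLK KO and LZK KO, where few genes of the list were called. The 5 markers, all detected, summed to 729 to 771 CPM in untreated WT and 914 to 1942 with vincristine, and to 105 to 112 and 97.5 to 104 in the double KO. In DLK KO the sums were 199 to 264 and 476 to 592, and in LZK KO 466 to 625 and 919 to 1113. In Control gRNA they were 1309 to 1398 and 2427 to 2524. Nearly all of each sum was NES, which encodes nestin, and SOX2 was at 22.4 and 20.5 CPM in WT before and after. The part of these markers in the results was not tested.

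With ATF2 or JUN silenced, part of the list still fell. With the ATF2 guide, 8 of the 35 genes fell with vincristine and none rose, beside 6.1% of all genes (1.88% higher and 4.22% lower). With the JUN guide, 21 fell and none rose, beside 15.9% (7.58% higher and 8.31% lower). The list's median fold change was -0.10 and -0.16. The difference from Control gRNA was called for 11 genes with the ATF2 guide, 10 higher and 1 lower, beside 20.6% of all genes (10.2% higher and 10.4% lower). It was called for 8 with the JUN guide, 7 higher and 1 lower, beside 15.8% (8.71% higher and 7.06% lower). Both tests share the Control gRNA libraries. The 8 falls with the ATF2 guide became 5 without ATF2 gRNA untreated replicate 1, 5 without vincristine replicate 2 and 4 without vincristine replicate 4.

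SLC2A1 had the largest difference of the list among the genes that differed upward under each guide. With the ATF2 guide its CPM were 47.2, 43.8, 45.6, 47.9 and 43.9 untreated and 44.2, 44.7, 43.5 and 48.9 with vincristine, and with the JUN guide 45.3, 42.0, 45.1, 39.9 and 46.7 and 37.4, 33.4, 36.8, 39.4 and 37.7. The ATF2 groups overlapped throughout, while every treated JUN library was below every untreated one. The fold change with vincristine was -0.01 ± 0.06 (SE, adjusted p = 0.95) with the ATF2 guide and -0.25 ± 0.06 (SE, adjusted p = 0.00128) with the JUN guide. The differences from Control gRNA were 0.85 ± 0.08 (SE, adjusted p = 2.97e-11) and 0.62 ± 0.08 (SE, adjusted p = 7.55e-08).

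P4HA2 had 2.88, 3.20, 2.62, 4.09 and 3.65 CPM in untreated ATF2 gRNA neurons and 2.37, 3.69, 2.98 and 2.31 with vincristine. With the JUN guide it had 5.67, 4.11, 4.71, 4.72 and 4.94 CPM untreated and 4.62, 5.43, 5.75, 6.66 and 4.47 with vincristine. Neither population showed separate groups. The rise in Control gRNA was larger by 1.13 ± 0.22 than in ATF2 gRNA (adjusted p = 8.92e-05) and by 0.76 ± 0.20 than in JUN gRNA (adjusted p = 0.00646).

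TPI1 and LDHA still fell under both guides, but by less than in Control gRNA. TPI1 was at 571, 505, 514, 529 and 539 CPM in untreated ATF2 gRNA neurons and 457, 471, 474 and 502 with vincristine, and at 562, 558, 596, 523 and 562 and 482, 447, 485, 476 and 487 with the JUN guide. LDHA was at 163, 153, 150.1, 148 and 167 and 139.7, 147, 132 and 136 with the ATF2 guide, and at 173, 171, 182, 177 and 167 and 154, 144, 148, 158 and 150.3 with the JUN guide. All 4 pairs of groups were separate. The difference of TPI1 from Control gRNA was 0.34 ± 0.05 (SE, adjusted p = 2.66e-06) for ATF2 and 0.26 ± 0.05 (SE, adjusted p = 0.000182) for JUN. That of LDHA was 0.24 ± 0.05 (SE, adjusted p = 0.000697) and 0.21 ± 0.05 (SE, adjusted p = 0.00346). The TPI1 fall with the ATF2 guide lost its call without ATF2 gRNA vincristine replicate 2, the LDHA fall with that guide with only the groups compared in the fit, and the LDHA difference for JUN with no filter on low counts.

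SLC16A1, PFKFB4 and ALDOC had no called difference from Control gRNA. SLC16A1 fell by 0.38 ± 0.07 with the ATF2 guide, where its untreated libraries ranged over 50.7 to 64.5 CPM and the treated ones over 37.6 to 51.4, with slight overlap. With the JUN guide it fell by 0.30 ± 0.06, with 73.1 to 87.5 CPM untreated and 59.3 to 71.2 treated and no overlap. PFKFB4 fell with the JUN guide by 0.39 ± 0.08, with 24.5 to 31.8 CPM untreated and 21.2 to 25.5 treated, and was -0.23 ± 0.08 with the ATF2 guide (adjusted p = 0.107). ALDOC fell with both, by 0.42 ± 0.12 (adjusted p = 0.0294) and 0.39 ± 0.11 (adjusted p = 0.00817). The first of these was lost in 6 of 15 alternatives, among them without untreated replicate 1 or 3 or vincristine replicate 4 or 5.

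Other glycolytic enzymes also differed from Control gRNA in their response. With the ATF2 guide these were HK1 (0.19), HK2 (0.55), GPI (0.34), PFKM (0.21), PFKP (0.39), PKM (0.34) and LDHB (0.26). With the JUN guide they were HK1 (0.19), PFKM (0.16), PKM (0.28) and LDHB (0.26). The HK2 call was lost without ATF2 gRNA vincristine replicate 2, and the PFKM call with the JUN guide was lost without Control gRNA untreated replicate 4, Control gRNA vincristine replicate 5 or JUN gRNA untreated replicate 5. Between the 2 guides, 1 gene of 35 differed in its response, PFKP, by 0.52 ± 0.08 with an adjusted p of 5.54e-05, beside 2.83% of all genes (0.91% higher and 1.92% lower). Without ATF2 gRNA untreated replicate 1, JUN gRNA untreated replicate 4 or JUN gRNA vincristine replicate 1, 2 genes were called. PFKP went from 46.5 ± 2.13 (SD, n = 5) to 52.1 ± 2.36 CPM (SD, n = 4) with the ATF2 guide and from 47.4 ± 3.35 to 37.2 ± 3.29 CPM (SD, n = 5) with the JUN guide.

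The genes with a called difference both in the double KO against WT and in ATF2 gRNA against Control gRNA were SLC2A1, TPI1, LDHA and P4HA2, 4 in all, each with the same sign in both. The share of all genes called in both tests is not given here. In the second experiment the progenitor markers summed to 738 to 817 CPM untreated and 699 to 806 with vincristine under the ATF2 guide, and to 957 to 1080.1 and 1657 to 1764 under the JUN guide. Their part in these results was not tested.

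**Figure D3:**
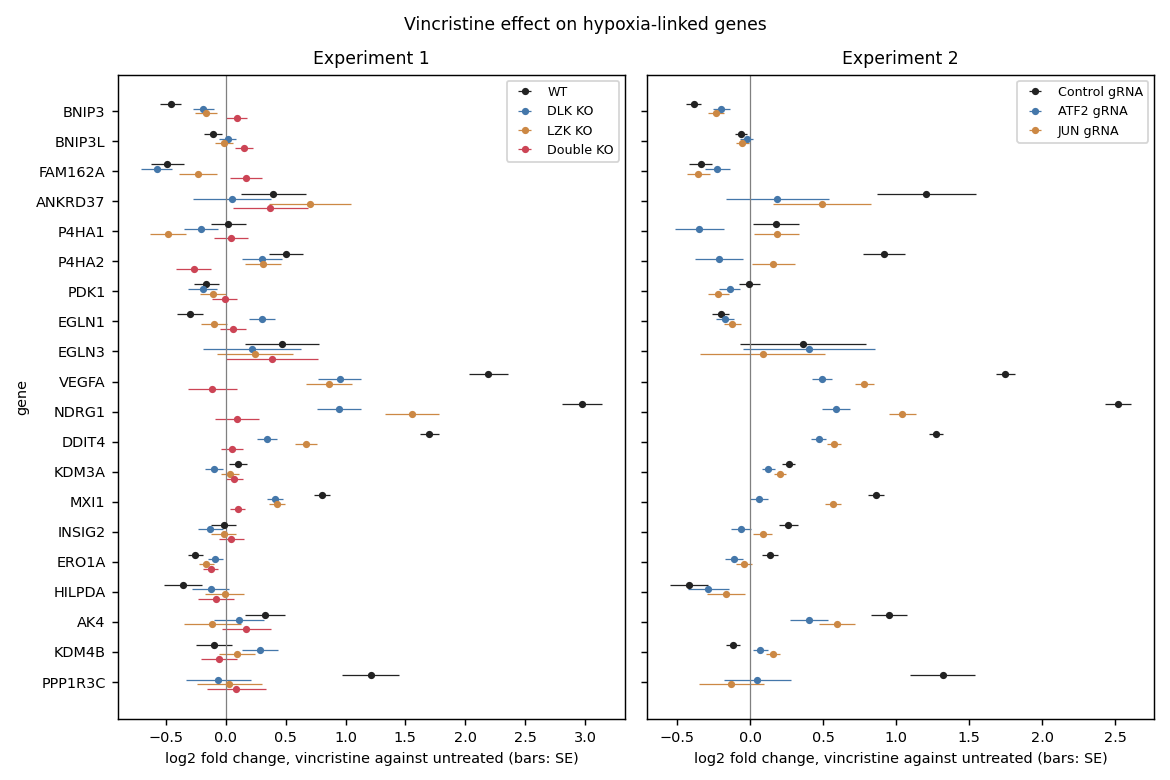
Log2 fold change with vincristine ± SE of 20 hypoxia-linked genes, 9 from the list and 11 others, in the lines of the first experiment and the guide populations of the second. BNIP3 and FAM162A lie below 0 and NDRG1, VEGFA and DDIT4 above 0 in WT and Control gRNA, and the double KO values of those 3 are 0.09, -0.11 and 0.05.

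Before any drug, the knockouts already differed from WT in much of the list. In untreated DLK KO neurons 3 genes were higher and 17 lower, beside 34.5% of all genes called (16.5% higher and 17.9% lower). In LZK KO none was higher and 19 were lower, beside 33.9% (17.1% higher and 16.8% lower), and in the double KO 5 were higher and 17 lower, beside 45.7% (23.6% higher and 22.1% lower). The list's medians were -0.22, -0.34 and -0.29. The 11 genes that were lower in all 3 lines were ALDOA, ENO1, GAPDH, GPI, HK1, LDHA, PFKFB4, PFKM, PGAM1, PKM and TPI1. These comparisons share the untreated WT libraries, and the share of all genes lower in all 3 lines is not given here. Under the ATF2 guide 2 were higher and 21 lower than in Control gRNA, beside 39.9% of all genes (19.7% higher and 20.2% lower). Under the JUN guide 2 were higher and 5 lower, beside 11.2% (5.78% higher and 5.46% lower). Those 7 became 4 without Control gRNA untreated replicate 2 or JUN gRNA untreated replicate 4, and with offsets for GC content TPI1 and GAPDH lost their calls in DLK KO and GAPDH in LZK KO.

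**Figure D4:**
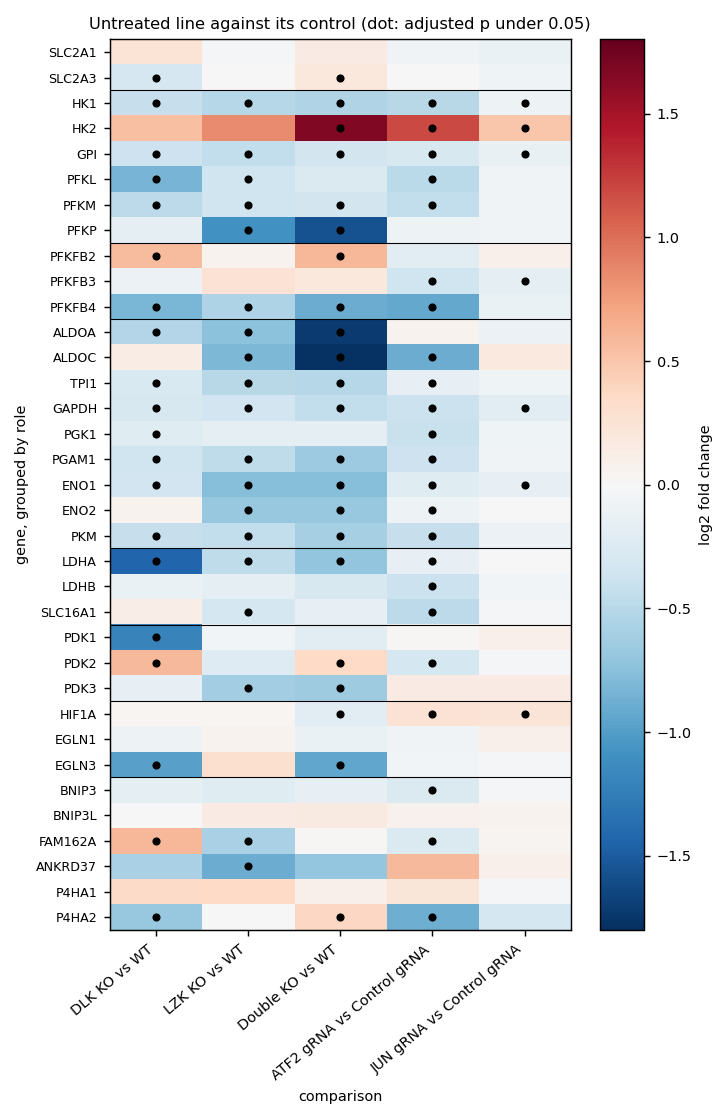
Log2 difference of the untreated level from WT (3 knockout lines) or from Control gRNA (2 guides) for the 35 tested genes, by role; a dot marks a gene called at an adjusted p under 0.05. Dots on lower levels outnumber those on higher levels in every column, with HK2 among the higher ones in the double KO, ATF2 gRNA and JUN gRNA.

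LDHA and ALDOA were lower in all 3 untreated knockout lines, PDK1 in DLK KO, and ALDOC and PFKP in LZK KO and the double KO. LDHA was at 44.9, 37.6, 50.6 and 47.5 CPM in untreated DLK KO, all below the WT range given above, a difference of -1.43 ± 0.13 (SE, adjusted p = 4.25e-10). In LZK KO, at 83.5, 95.9, 72.7 and 102 CPM, it differed by -0.46 ± 0.13 (SE, adjusted p = 0.006), and in the double KO by -0.71 ± 0.13 (SE, adjusted p = 3.59e-05). All double KO and LZK KO libraries were also below all WT libraries. PDK1 was at 13.0 ± 1.29 CPM in DLK KO and 30.0 ± 3.34 in WT (SD, n = 4), a difference of -1.21 ± 0.11 (SE, adjusted p = 4.57e-11), and was not called in LZK KO (-0.05) or the double KO (-0.19).

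Genes near PDK1 were also lower in DLK KO, and genes near ALDOA in the double KO. Of the 66 tested genes within 5 Mb of PDK1 (chr2:172555373-172608669), 58 were lower in DLK KO and 45 were called lower, with a median of -0.90. Of the 125 within 5 Mb of ALDOA (chr16:30064164-30070457), 122 were lower in the double KO and 110 called lower, with a median of -1.08. ALDOA itself was lower there by 1.72 ± 0.11. The 59 genes around LDHA had a median of -0.00 in DLK KO, and those around PFKP (34 genes), ALDOC (95) and HK2 (83) had medians of -0.00, -0.07 and 0.03 in the double KO. The part of the neighbourhood in the levels of PDK1 and ALDOA was not tested.

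Markers of other cell states also differed between the untreated lines. The 5 pluripotency markers, of which 2 passed the filter in the first experiment, summed to 2.81 to 3.35 CPM in WT and 52.9 to 59.1 in the double KO, of which LIN28A alone had a mean of 53.4 CPM. POU5F1 and NANOG, defining markers of pluripotent cells, had untreated group means of at most 0.670 and 0.222 CPM in these lines. The 5 markers of dividing cells summed to 10.9 to 13.0 CPM in WT, 18.3 to 20.2 in DLK KO, 66.8 to 74.2 in LZK KO and 24.5 to 32.1 in the double KO. Under the ATF2 guide the pluripotency sum was 33.8 to 40.2 CPM, against 9.58 to 13.5 in Control gRNA. The oligodendrocyte sum was 21.8 to 25.2 CPM in WT, 22.2 to 24.7 in DLK KO, 36.8 to 43.2 in LZK KO and 13.1 to 15.3 in the double KO. The astrocyte sum was 6.56 to 8.42 CPM in ATF2 gRNA and 1.74 to 2.57 in Control gRNA. The 10 neuronal markers summed to 5502 to 5765 CPM in untreated WT, 4154 to 4564 in DLK KO, 6438 to 7669 in LZK KO and 7025 to 7357 in the double KO, and to 6240.2 to 6849 in Control gRNA, 4927 to 5376 in ATF2 gRNA and 6286 to 6897 in JUN gRNA. All DLK KO and ATF2 gRNA libraries lay below those of their controls, and all LZK KO and double KO libraries above them. The part of these markers in the untreated differences was not tested.

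ALDOC was at 7.28, 6.86, 5.64 and 4.71 CPM in untreated LZK KO and 2.29, 3.61, 3.36 and 3.07 in the double KO, all below WT, with differences of -0.80 ± 0.14 (SE, adjusted p = 1.6e-05) and -1.77 ± 0.15 (SE, adjusted p = 1.55e-12). PFKP was at 54.1 ± 1.83 CPM in WT, 25.3 ± 2.85 in LZK KO and 18.3 ± 1.22 in the double KO (SD, n = 4), lower by 1.10 ± 0.10 and 1.56 ± 0.10. It was not called in DLK KO (-0.18). ENO2 was lower by 0.68 ± 0.05 in LZK KO and 0.69 ± 0.05 in the double KO and was 0.06 in DLK KO.

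PFKFB4 was lower in the 3 knockout lines and under the ATF2 guide. Its untreated CPM were 16.2, 16.2, 20.3 and 18.4 in DLK KO, 20.4, 21.5, 22.8 and 21.0 in LZK KO and 17.9, 17.2, 16.0 and 16.9 in the double KO. With the ATF2 guide they were 17.4, 14.1, 17.2, 17.3 and 17.1, and with the JUN guide 29.0, 31.2, 31.8, 24.5 and 29.1. All libraries of the knockouts and of ATF2 gRNA lay below all of their controls, and those of JUN gRNA overlapped Control gRNA. The differences were -0.83 ± 0.12 (SE, adjusted p = 8.24e-07) in DLK KO, -0.56 ± 0.12 in LZK KO, -0.90 ± 0.12 in the double KO and -0.93 ± 0.08 (SE, adjusted p = 5.55e-14) in ATF2 gRNA.

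HK2 was higher in the double KO and under both guides, at a low level. It was at 0.893 ± 0.172 CPM in WT and 2.82 ± 0.715 in the double KO (SD, n = 4), a difference of 1.67 ± 0.30 (SE, adjusted p = 1.68e-05). In the second experiment its level in untreated Control gRNA neurons was 5.22 ± 0.730 CPM, with 11.9 ± 1.61 under the ATF2 guide and 7.33 ± 1.21 under the JUN guide (SD, n = 5), differences of 1.19 ± 0.12 (SE, adjusted p = 2.33e-11) and 0.49 ± 0.12 (SE, adjusted p = 0.00422). Its share of the RPKM of HK1 and HK2 together was 0.693% ± 0.0996 in Control gRNA and 2.20% ± 0.327 in ATF2 gRNA (SD, n = 5), with HK1 the rest. HK1 itself was lower in ATF2 gRNA by 0.50 ± 0.03 (SE, adjusted p = 2.73e-20). Among the hypoxia-linked genes in ATF2 gRNA, P4HA2 was lower by 0.87 ± 0.15 and BNIP3 and FAM162A each by 0.26, while HIF1A was higher by 0.26. With offsets for GC content the HIF1A call was lost, at 0.084.

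The shares of the genes within a step of the pathway were also compared. PFKP made up 26.6% ± 0.329 of the RPKM of the 3 phosphofructokinase genes in untreated WT and 13.2% ± 0.614 in the double KO (SD, n = 4). LDHA made up 11.5% ± 0.301 of lactate dehydrogenase RPKM in WT and 4.98% ± 0.182 in DLK KO, with no overlap of libraries. PDK1 made up 19.7% ± 2.38 of the pyruvate dehydrogenase kinase RPKM in WT and 9.26% ± 0.650 in DLK KO. With vincristine the share of LDHA stayed near its untreated value in Control gRNA, at 10.7% ± 0.301 before and 10.7% ± 0.304 after (SD, n = 5). In WT it went from 11.5% ± 0.301 to 10.3% ± 0.395 (SD, n = 4), with no overlap of libraries. The share of PFKFB4 among the PFKFB genes went from 26.4% ± 1.53 to 22.2% ± 1.01 in Control gRNA and from 35.1% ± 2.69 to 26.6% ± 1.70 in WT. These shares are descriptions and were not tested.

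Summed over the 17 enzyme genes from hexokinase to lactate dehydrogenase, WT held 4727 ± 232 CPM untreated and 4319 ± 240.2 with vincristine (SD, n = 4), and Control gRNA 9735 ± 175 and 8063 ± 208 (SD, n = 5). The sum was 3846 ± 69.9 and 3728 ± 79.1 in DLK KO, 3493 ± 67.5 and 3828 ± 135 in LZK KO and 3329 ± 89.3 and 3513 ± 157 in the double KO. It was 7773 ± 275 (SD, n = 5) and 7229 ± 124 (SD, n = 4) with the ATF2 guide and 9013 ± 372 and 8152 ± 243 with the JUN guide (SD, n = 5). GAPDH is the largest single part of each sum, so the sums follow the abundant genes. Treated and untreated libraries overlapped in DLK KO, the double KO and WT, where treated ones reached 4534 CPM and untreated ones went down to 4392. All treated libraries lay below all untreated ones in Control gRNA and under both guides, and above them in LZK KO. Untreated knockout libraries all lay below untreated WT.

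**Figure D5:**
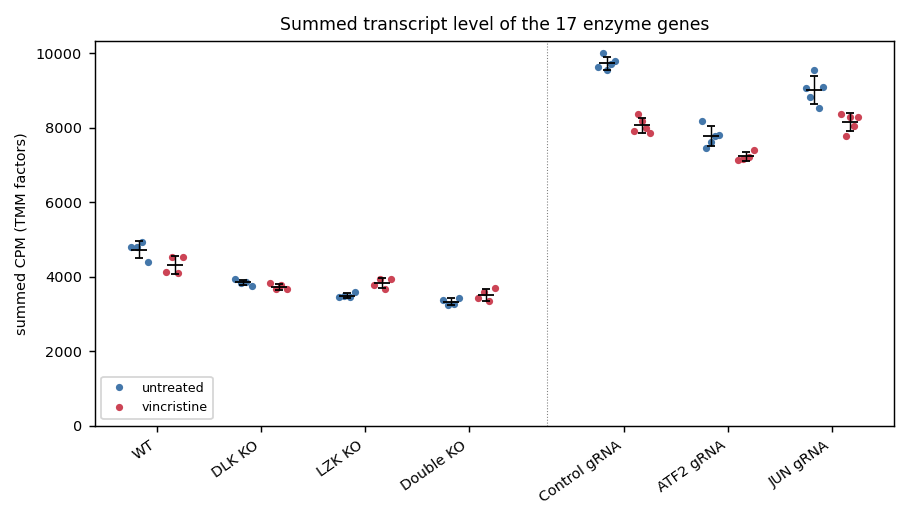
Summed level of the 17 enzyme genes from hexokinase to lactate dehydrogenase in each library, in CPM, by group; points are libraries and bars the mean ± SD. The Control gRNA mean is 9735 untreated and 8063 with vincristine, and the untreated knockout lines lie below untreated WT.

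Other genes of the same pathways were counted from separate lists, beside the 30.2% of all genes called in WT (15.7% higher and 14.5% lower) and the 35.3% called in Control gRNA (17.1% higher and 18.1% lower). Among other genes known to be induced by low oxygen, 5 of 11 tested rose and 1 fell in WT, and 8 of 12 rose and 1 fell in Control gRNA. NDRG1, a stress gene, went from 3.75 ± 0.827 to 29.3 ± 1.50 CPM in WT (2.98 ± 0.17 SE, adjusted p = 9.05e-17) and from 9.45 ± 0.775 to 54.0 ± 2.42 in Control gRNA (2.52 ± 0.09 SE, adjusted p = 1.76e-26). VEGFA, the vascular growth factor, rose by 2.19 ± 0.16 and 1.75 ± 0.07, DDIT4, an inhibitor of mTORC1, by 1.70 ± 0.08 and 1.27 ± 0.05, and PPP1R3C, a glycogen-targeting subunit, by 1.21 ± 0.24 and 1.32 ± 0.22. In the double KO 0 of the 11 were called by edgeR, beside 0.0658% of all genes, and 0 had an unadjusted p under 0.05. The difference from WT was called lower for 5 of 11 there (NDRG1 -2.89, VEGFA -2.31, DDIT4 -1.65), beside 10.2% of all genes. In ATF2 gRNA against Control gRNA it was called lower for 8 of 12, beside 10.4%. Vincristine still raised NDRG1 and VEGFA under both guides, by 0.59 and 0.49 with ATF2 silenced and by 1.04 and 0.78 with JUN silenced.

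Genes that carry pyruvate into mitochondria fell in 4 of 9 cases in WT and 6 of 9 in Control gRNA, and none rose. MPC1, a subunit of the mitochondrial pyruvate carrier, fell by 1.01 ± 0.15 and 0.39 ± 0.09, PDP2, a phosphatase that reactivates pyruvate dehydrogenase, by 0.81 and 0.32, and DLAT, a subunit of that enzyme, by 0.55 and 0.34. The difference between the double KO and WT was called higher for 6 of these 9, beside 9.21% of all genes.

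Among other genes of glucose and glycogen handling, 8 of 14 fell and 2 rose in WT, and 7 of 16 fell and 3 rose in Control gRNA. SLC2A6, a sugar transporter, fell by 1.11 ± 0.15 and 0.77 ± 0.09, TIGAR, which lowers fructose 2,6-bisphosphate, by 1.31 ± 0.12 and 0.41 ± 0.10, and the inositol transporter SLC2A13 by 0.61 and 0.51. The difference between the double KO and WT was called higher for 8 of 14 and lower for 1, beside 9.21% and 10.2% of all genes. Of the other genes of oxygen sensing, 2 of 10 rose and 1 fell in WT, and 1 of 11 rose and 5 fell in Control gRNA. The WT count, 3 of 10, is at the share of all genes called. RBX1, a subunit of the ligase that degrades HIF-1α, fell in both, by 0.46 and 0.26.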

How the data were processed

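Poly(A) RNA of 61 samples in 14 groups was sequenced as stranded libraries, and the authors deposited 2 tables of raw read counts per gene, 1 for each experiment, per the file headers. The submitters' processing notes name cutadapt 3.4, STAR, featureCounts of Subread 2.0.1 and the build GRCh38. The strand setting of the counting is not given in the sources used here. Gene symbols came from GENCODE release 29 for 58320 of the 58440 identifiers.

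Counts were tested in R 4.3.3 with edgeR 4.0.16 (filterByExpr by group, TMM factors, robust quasi-likelihood fit over all groups of an experiment, 2-sided, Benjamini-Hochberg over all genes tested, threshold 0.05). CPM and RPKM were computed with TMM library sizes and the deposited gene lengths. Scripts were tested on simulated counts. The alternatives were DESeq2 1.42.0, RLE factors, no filter, the replicate number as a block, only the groups compared, each library left out in turn, and, chosen after seeing the data, offsets for GC content. Replicates of a group differed by more than sampling noise in every pair. The genes and lists were chosen with earlier results of these data known. Values in every library are given for genes called in the same direction in WT and Control gRNA and changed by 0.5 or more on the log2 scale in 1 of them, and for genes whose difference was called both in the double KO and in ATF2 gRNA. From the other pathway lists, up to 4 genes called in both control populations were named, by the largest mean absolute change. The result of 1 other list is not reported here. Promoter stretches came from up to 6 genes that fell or rose in both, by the largest mean change. Only genes whose promoter entry lies before the RefSeq gene were taken, which left out P4HA2, PFKFB4, TPI1 and PFKP among others. Only bases outside annotated exons are printed, in stretches of at least 50. SLC2A1 and ALDOC are not shown because exons cover all 250 bases, and each stretch that is printed holds ACGTG. Figures were drawn with matplotlib 3.10.9.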

Additional observations from a re-analysis of the deposited data

Results flagged for a closer look

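In 6 of the 112 groups examined, for the 7 genes shown library by library and the summed enzyme level, 1 library lay far from the rest of its group, where chance alone marks about 1 in 20. The lowest PFKFB4 level in untreated ATF2 gRNA was 14.1 CPM, and the highest in JUN gRNA with vincristine was 25.5 CPM. The lowest LDHA level in untreated WT was 108 CPM. For SLC16A1 the highest library in WT with vincristine, replicate 4, was at 28.9 CPM, and the highest in untreated LZK KO was at 32.0 CPM. The lowest P4HA2 level in untreated DLK KO was 3.29 CPM.

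The effect of vincristine differed between populations, by the test of the difference itself (edgeR, adjusted p under 0.05), in 41 cases, given here as log2 differences. DLK KO exceeded WT for SLC2A1 by 0.82, PFKFB4 by 0.73, HIF1A by 0.34 and EGLN1 by 0.60. LZK KO exceeded WT for SLC2A1 by 0.88, TPI1 by 0.44, PGAM1 by 0.32, ENO1 by 0.37 and PKM by 0.33. The double KO exceeded WT for SLC2A1 by 0.85, PFKFB4 by 0.64, TPI1 by 0.51, PGAM1 by 0.42, ENO1 by 0.35 and LDHA by 0.63. The same held for SLC16A1 by 0.75, HIF1A by 0.52, BNIP3 by 0.55 and FAM162A by 0.66, with P4HA2 at -0.77. Against DLK KO, the double KO was higher for FAM162A by 0.74.

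ATF2 gRNA exceeded Control gRNA for SLC2A1 by 0.85, HK1 by 0.19, HK2 by 0.55, GPI by 0.34, PFKM by 0.21 and PFKP by 0.39. It also did so for TPI1 by 0.34, PKM by 0.34, LDHA by 0.24 and LDHB by 0.26, with P4HA2 at -1.13. JUN gRNA exceeded Control gRNA for SLC2A1 by 0.62, HK1 by 0.19, PFKM by 0.16, TPI1 by 0.26, PKM by 0.28, LDHA by 0.21 and LDHB by 0.26, with P4HA2 at -0.76. ATF2 gRNA exceeded JUN gRNA for PFKP by 0.52.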

How the results depend on the processing

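Of the 204 calls over the 35 genes and 19 comparisons, 163 held under every alternative run, 41 were lost under at least 1, and 0 reversed. Same-numbered replicates did not deviate together (median correlation -0.047 and -0.0025), so the replicate block joins libraries that share only a number. With it, 1 gene was called in DLK KO with vincristine, 0 in LZK KO and 5 in ATF2 gRNA, against 2, 1 and 8 without. Other settings moved these counts of called genes by over 1.5 times. In DLK KO, the 2 calls with vincristine became 1 with RLE factors, 4 with no filter and 6 with only the groups compared. In LZK KO, the 1 call became 2 with GC offsets, 2 with DESeq2 and 0 with only the groups compared. In the double KO, fitting only the groups compared gave 5 calls in place of 0. ATF2 gRNA gave 5 with RLE factors and 3 with only the groups compared. The double KO against DLK KO gave 2 with no filter and 11 with only the groups compared, DLK KO against WT 7 with GC offsets in place of 4, ATF2 gRNA against JUN gRNA 2 with no filter and 4 with GC offsets in place of 1, and untreated JUN gRNA 4 with GC offsets in place of 7. The cause of these shifts was not tested, and the share of all genes called under each alternative is not given here.

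With 1 library left out, the counts of called genes for the vincristine effect ran from 13 to 18 in WT, 1 to 1 in DLK KO, 0 to 3 in LZK KO, 0 to 0 in the double KO, 23 to 25 in Control gRNA, 4 to 11 in ATF2 gRNA and 19 to 22 in JUN gRNA. For the differences in effect they ran from 4 to 7 (DLK KO), 4 to 10 (LZK KO), 11 to 14 (double KO) and 0 to 1 (double KO against DLK KO), and from 11 to 14 (ATF2 gRNA), 7 to 9 (JUN gRNA) and 1 to 2 (between the guides). For the untreated levels they ran from 18 to 21, 17 to 20 and 18 to 22 in the DLK, LZK and double knockouts, 22 to 23 in ATF2 gRNA and 4 to 8 in JUN gRNA.

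Only values that were not called changed sign, all near 0. For untreated P4HA2 in LZK KO the value was -0.0084 with RLE factors, -0.0043 with no filter, -0.0081 with DESeq2, -0.0095 with only the groups compared and -0.10 to 0.12 with 1 library left out. With GC offsets, PFKFB4 was -0.038 with vincristine in DLK KO, 0.027 in the double KO and 0.065 for the double KO against DLK KO, ALDOC -0.0048 for DLK KO against WT, untreated SLC2A1 in LZK KO 0.059, and untreated LDHA in JUN gRNA -0.011. PFKFB4 in the double KO was 0.00091 with only the groups compared, and SLC2A1 in ATF2 gRNA 0.0053 with RLE factors and 0.0052 with DESeq2. Leaving out 1 library gave ranges of -0.045 to 0.014 for SLC2A1 in ATF2 gRNA, -0.13 to 0.045 for untreated SLC2A1 in LZK KO, -0.0041 to 0.079 for SLC2A1 in the double KO against DLK KO, and -0.0087 to 0.15, -0.036 to 0.045 and -0.16 to 0.011 for PFKFB4 in DLK KO, in the double KO and between them. They were -0.029 to 0.23 for ALDOC in the double KO, -0.085 to 0.10 for ALDOC and -0.14 to 0.0024 for SLC16A1 between the guides, -0.050 to 0.14 for LDHA in LZK KO, and -0.0046 to 0.031 for LDHA and -0.052 to 0.019 for SLC16A1 in untreated JUN gRNA. With no filter the median of all genes shifted by over 0.1, by up to 0.248. Genes near 1 CPM, such as EGLN3, HK2 in the first experiment and ANKRD37, rest on few counts in the shallower experiment.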
